A study of Macaca mulatta with 60 samples.

Results

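The transcripts described here are 88 spliceosomal RNAs of the rhesus monkey fetus, out of 26149 transcripts measured on each array. They were chosen from the study's 8 lists of transcripts called changed by bisphenol A (BPA) in a heart chamber, 1 list for each of 4 chambers and 2 exposure windows, as every entry described as a spliceosomal RNA. The lists hold 606 entries, of which 96 are spliceosomal, and the 96 entries come from 88 transcripts because 8 of them are listed in 2 lists each. By their descriptions, 73 of the 88 are U6, 6 are U4, 5 are U1, 2 are U5, 1 is U2 and 1 is U6atac. The choice therefore rests on the BPA effect in the listing chamber and window, and those effects are given below as a description, with no test. The effect of gestation was not used for the choice, nor were effects in other tissues or windows, except that for the 8 members with 2 entries both listed effects were used.

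The 60 arrays were 12 for each of the ventricles (LV and RV, left and right), the atria (LA and RA) and the biceps femoris (BFM), a skeletal muscle, all of female fetuses. The labels number the samples of each tissue from 1 to 12, and a number stands for the same group in every tissue. A number is called a fetus here, but no source used here states that it was the same animal in all 5 tissues. Fetuses 1 to 3 were controls and fetuses 4 to 6 were exposed through their mothers to BPA during early gestation (EG, days 50 to 100), and fetuses 7 to 9 were controls and 10 to 12 exposed during late gestation (LG, day 100 to term). Exposed dams were given 400 µg/kg body weight of BPA each day in fruit and control dams the ethanol vehicle, and no fetus was genetically altered. EG fetuses were obtained by caesarian section and LG fetuses after vaginal delivery, so age and mode of delivery cannot be told apart in any comparison of LG with EG. Each group had 3 fetuses per tissue, and an exact permutation test of 3 against 3, with 10 splits, cannot go below p = 0.1.

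Values are log2 levels that the authors normalized separately within each tissue, so they were compared within a tissue only. Array medians lay between 6.24 (RV) and 7.74 (BFM). In LV, between 71 and 810 transcripts of an array shared that array's lowest value, against at most 2 in the other tissues. cDNA of LV and RV was labelled without amplification and that of LA and RA after amplification, and each chamber had a slide of its own. MYH6, the atrial heavy chain of myosin, lay between 14.30 and 14.96 in all atrial arrays, between 5.51 and 14.43 in ventricular arrays, and between 6.28 and 10.6 in BFM, so this marker alone does not separate ventricle from skeletal muscle. In whole tissue, fewer cells of a type and less RNA per cell cannot be told apart.

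Spliceosomal RNAs are short noncoding RNAs that form the core of the spliceosome, the machine that removes introns from transcripts. U1 recognises the start of an intron, U2 pairs with the branch point, U4 holds U6 inactive by pairing with it, U5 holds the exons in place, and U6 joins the catalytic core. U6atac takes the part of U6 in the minor spliceosome, which removes a rare class of introns. U6 is made by RNA polymerase III and the others named, apart from U6atac, by RNA polymerase II. Mammalian genomes carry many copies of these sequences, a large share of them pseudogenes, and the Ensembl gene name table used here has 1209 genes with the symbol U6, 131 with U1, 137 with U2, 96 with U4 and 30 with U5. A short RNA of this kind was read by only a few probes of the array, fewer than a messenger RNA, and copies that share sequence may share signal. Which copies do so was not tested, and levels of different copies are therefore given as positions within an array and not as amounts of RNA.

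Most of the 88 transcripts sat low on the arrays in every tissue. The percentile of a transcript among all 26149 of an array, averaged over the 12 arrays of a tissue, had a median over the 88 of 27.5 for BFM, 30.7 for RA, 31.4 for RV, 33.5 for LV and 34.6 for LA. In all 5 tissues, 65 of the 88 stayed in the lower 50 percent and 6 stayed above it, and no member exceeded the 90th percentile anywhere. The most brightly read were the U6 transcripts ENSMMUT00000050700, at percentiles from 75.4 in LV to 83.9 in BFM, and ENSMMUT00000037751, at percentiles from 72.5 in RV to 82.6 in LA. These are the 2 members above the 70th percentile in all 5 tissues. At the other end, the U6 transcript ENSMMUT00000037794 lay between percentiles 2.26 and 4.62, and ENSMMUT00000050795, also U6, between 2.21 and 8.52, the 2 members below the 10th percentile in all 5 tissues. The U2 transcript ENSMMUT00000051150 lay between 2.26 and 10.6. Between tissues the position of a member had a median range of 15.9 percentile points, against 12.4 for all transcripts, and the widest was 34.5, for the U6 transcript ENSMMUT00000037540 (from 12.4 in BFM to 46.9 in RA).

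By type, the median percentile of U6 ran from 27.7 in BFM to 36.4 in LA. The 5 U1 transcripts had medians between 24.0 in LV and 38.0 in BFM, and the 6 U4 transcripts between 23.8 in LA and 31.6 in BFM. U5 was represented by a brighter and a dimmer copy. ENSMMUT00000033879 lay between percentiles 25.4 and 54.0, and ENSMMUT00000050182 between 0.85 and 17.0. U6atac ranged from 15.0 in BFM to 30.9 in LA. No type other than U6 had a member above the median of all transcripts, except for the brighter U5 copy in LV. In LV, 33 of the 88 members were at their array's lowest value on at least 1 array, which happened for none of them in RV, LA, RA or BFM.

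**Figure D1:**
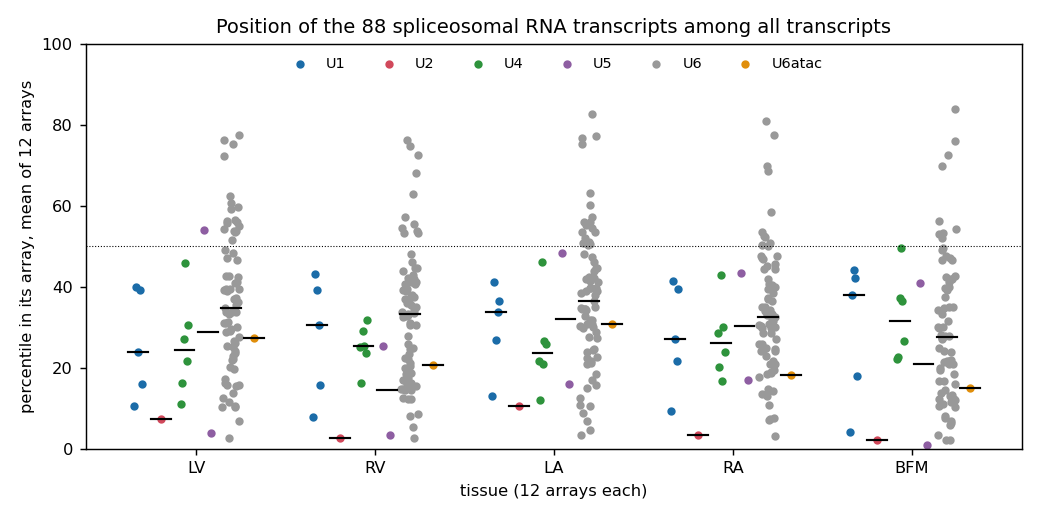
Each point is 1 of the 88 transcripts, placed on the vertical axis by its percentile among all 26149 transcripts of an array, averaged over the 12 arrays of the tissue on the horizontal axis, with colours for the type of spliceosomal RNA and short black lines for the median of a type. Most points lie below the dotted line at the 50th percentile, and all members above the 60th percentile are U6.

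The members also varied more between fetuses of the same group than a typical transcript did. On the log2 scale, the median standard deviation within groups was 0.56 for the 88 members in BFM against 0.26 for all transcripts. The same pair of medians was 1.27 and 0.58 for LV, 0.57 and 0.41 for RV, 0.62 and 0.31 for LA, and 0.76 and 0.34 for RA. BFM is in none of the lists, so its spread played no part in the choice of members. The comparison was not matched for level or number of probes, and these short RNAs were read by fewer probes than a messenger RNA. Transcripts were tested in a tissue where their interquartile range over its 12 arrays reached 0.5. Of the 88, 58 (65.9%) passed for BFM, where 32.9% of all transcripts did, 86 for LV, 82 for RA, 75 for RV and 74 for LA. All listed members passed in the chamber that lists them, because the lists were made after the same filter, and 44 members were tested in all 5 tissues.

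The 73 U6 transcripts hardly moved together from fetus to fetus. After group means were removed, the correlation of a pair of U6 transcripts over the 12 arrays averaged 0.08 for RA, 0.05 for BFM, 0.041 for RV, 0.025 for LA and 0.011 for LV, over 2628 pairs each. With the U6 transcripts that a chamber lists left out, the average was 0.072 for RA, 0.082 for RV, 0.045 for LA and 0.026 for LV. Pairs drawn from all transcripts averaged between 0 and 0.005. Correlations above 0.7 were held by 4.53% of U6 pairs in BFM and those below −0.7 by 2.02%, and in LV by 3.65% and 2.13%. The shares of all transcript pairs beyond these limits were not counted, and unrelated pairs also reach them with so few arrays. These are correlations across arrays that share normalization and, within a fetus, all their handling, and they are given as a description. The 15 members of other types averaged between −0.01 (RV) and 0.051 (LA) among themselves.

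**Figure D2:**
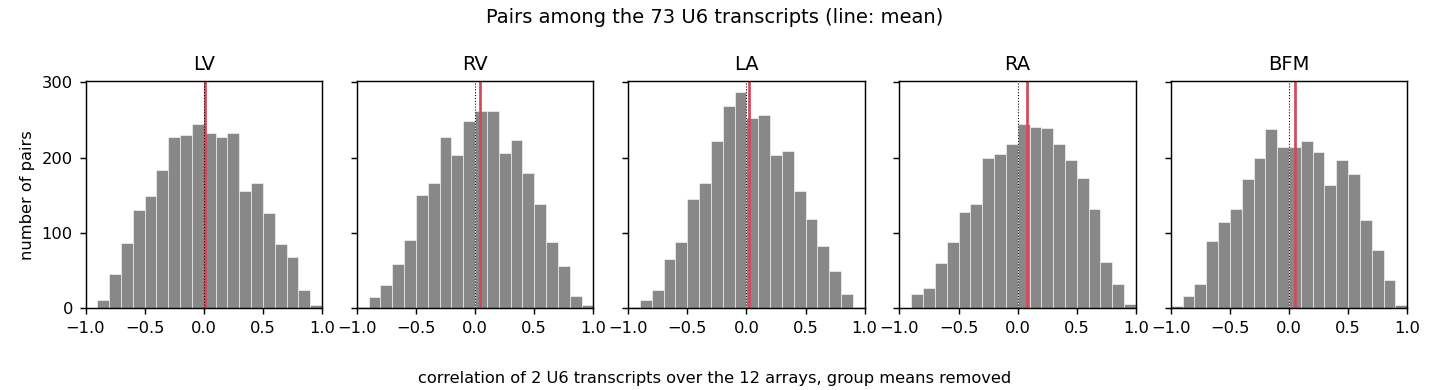
Each panel counts, for 1 tissue, the pairs of U6 transcripts (vertical axis) by the correlation of their log2 values over 12 arrays after group means were removed (horizontal axis). The red lines at the mean, from 0.011 in LV to 0.08 in RA, lie close to the dotted line at 0, and pairs reach far to both sides.

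A sample number that was high for a member in one tissue was not as a rule high for it in the others, for members as for most transcripts. The deviations of the 12 numbers from their group means, correlated over the 10 pairs of tissues, had a median over members of −0.026, and the highest member reached 0.298. For all transcripts the median was 0.072, and 15.0% exceeded 0.3, against 0% of the members. Whether equal numbers are the same animal is not stated, so this describes the labels as they are.

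BFM offers a reading of BPA that the choice of members did not use. Of the 58 members tested there, 1 was called lower in EG and 1 higher in LG, at the criterion behind the lists, which is a 2-fold difference (1 on the log2 scale) with an unadjusted p no higher than 0.01. Among all 8609 transcripts tested in BFM, 0.267% were called in EG and 0.825% in LG, and 1 member of 58 is 1.72%. A count of 1 in each window is too few to tell the members' share from that of all transcripts. No member passed a Benjamini-Hochberg adjusted p of 0.05 in either window by limma, where 3 members in EG and 4 in LG had an unadjusted p under 0.05, against 2.5% and 5.32% of all transcripts tested. The median log2 fold change over the 88 members was −0.01 in EG and 0.06 in LG, with 43 and 46 of 88 above 0.

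The member called in BFM after LG exposure was ENSMMUT00000037347, a U6 transcript listed as raised in RV LG. Its BFM values were 5.42, 5.82 and 4.73 in LG controls and 7.32, 8.04 and 7.48 in LG BPA fetuses, so the groups did not overlap. The difference was 2.29 (SE 0.52, unadjusted p = 0.00103 and adjusted p = 0.401 by limma). In EG, the BFM controls read 6.49, 5.25 and 7.10 and the BPA fetuses 6.76, 6.92 and 8.36, which overlap, with a difference of 1.07 (SE 0.52). In RV LG, the comparison that put it on the list, controls read 4.11, 4.92 and 6.13 and BPA fetuses 7.02, 7.27 and 7.38. The LG difference was 1.15 (SE 0.75) in LA, −0.26 (SE 0.61) in RA and −0.62 (SE 1.00) in LV, none of them called. The BFM call stood with each of the 12 BFM fetuses left out in turn, with a difference between 1.99 and 2.54.

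ENSMMUT00000036475, the U6 transcript called in BFM after EG exposure, is listed as lowered in LV EG. BFM controls of EG read 5.99, 5.91 and 6.38 and BPA fetuses 4.97, 5.27 and 5.04, without overlap. The difference was −1.002 (SE 0.30, unadjusted p = 0.00668 and adjusted p = 1 by limma), right at the limit on the fold change. The call was lost when any 1 of fetuses 1 to 6 was left out, with differences from −1.09 to −0.86 over all 12 omissions. In LV EG, controls read 6.18, 10.0 and 6.13 and BPA fetuses 3.39, −1.02 and 3.27, where the value of −1.02 is the lowest of its array. RV went the other way in EG, from 3.99, 3.83 and 3.78 in controls to 4.57, 5.85 and 4.83 in BPA fetuses (a difference of 1.22, SE 0.42, unadjusted p = 0.0109 by limma), just short of the criterion.

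Among the members tested in BFM, the highest EG difference belonged to ENSMMUT00000037517 (1.08, SE 0.46, unadjusted p = 0.0364 by limma) and the lowest to ENSMMUT00000035944 (−1.14, SE 0.40, unadjusted p = 0.0148). Neither was called. The difference of ENSMMUT00000037517 ran from 0.54 to 1.599 with single fetuses left out, and met the criterion without fetus 3. ENSMMUT00000035944 read 6.07, 5.74 and 7.29 in controls and 4.76, 5.40 and 5.50 in BPA fetuses. It met the criterion without fetus 2, where the difference was −1.45, and is listed as lowered in RA LG. In LG the lowest was ENSMMUT00000036432, with 7.65, 6.77 and 9.68 in controls and 6.26, 5.93 and 8.18 in BPA fetuses (−1.24, SE 0.77), which overlap. Its difference ran from −1.94 to −0.42 with single fetuses left out.

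ENSMMUT00000037517 is a U6 transcript listed as lowered in both LV LG and RV LG. In LV, LG controls read 7.82, 7.44 and 7.14 and BPA fetuses 6.39, 6.10 and 4.54. In RV, controls read 5.02, 7.75 and 5.84 and BPA fetuses 4.03, 4.35 and 3.49. BFM in LG had the opposite sign, with 5.92, 6.44 and 6.47 in controls and 7.39, 8.07 and 7.53 in BPA fetuses, again without overlap. That BFM difference was 1.39 (SE 0.46, unadjusted p = 0.0108 and adjusted p = 0.776 by limma), outside the criterion. RA showed little, at −0.09 (SE 0.75), and LA −0.69 (SE 0.54).

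**Figure D3:**
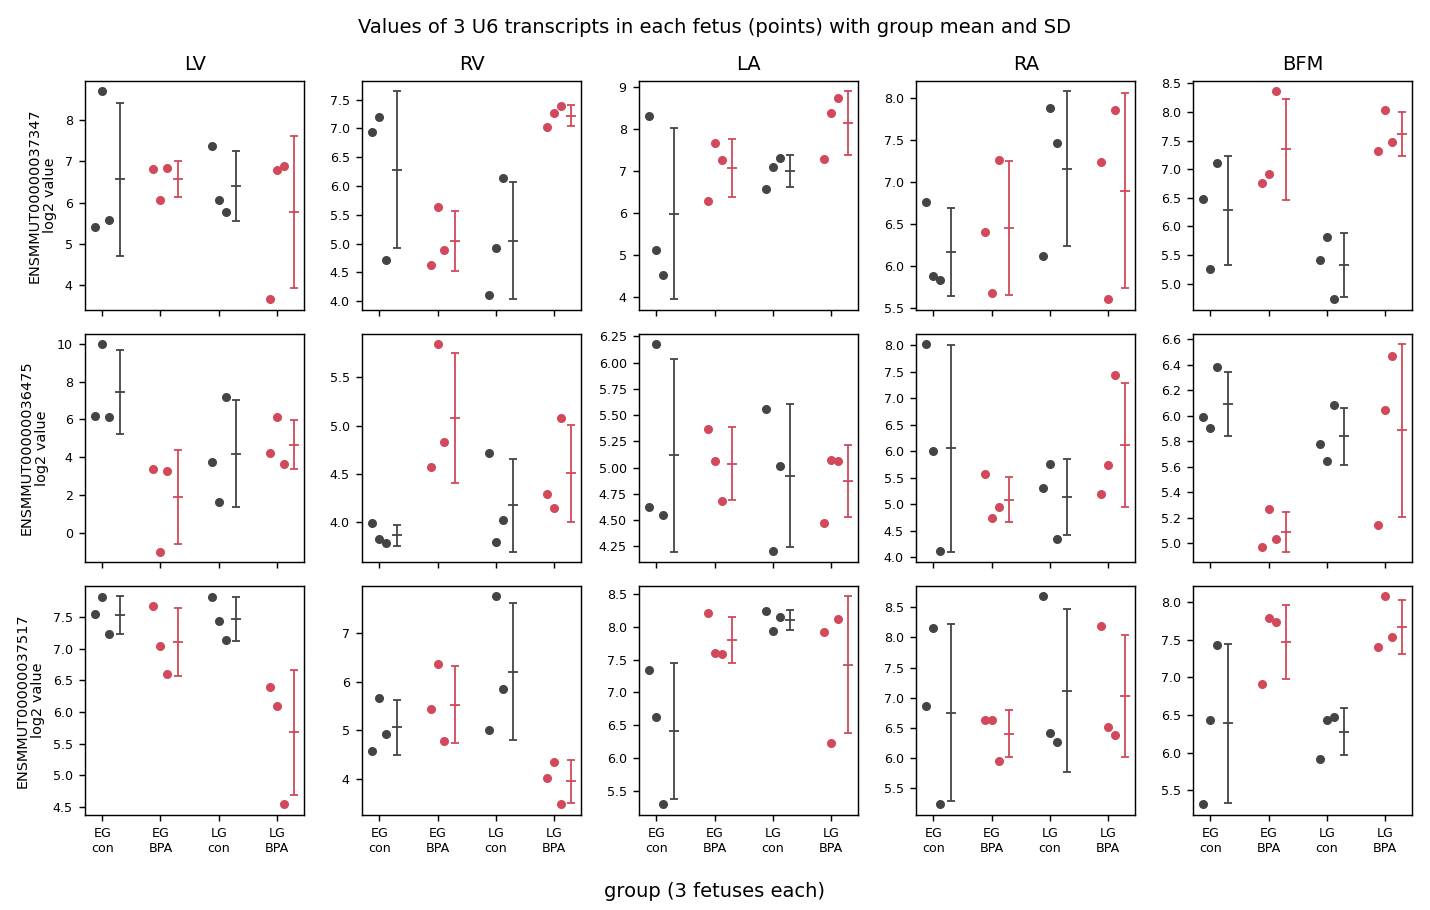
Log2 values of 3 U6 transcripts (rows) in 5 tissues (columns) for each of 12 fetuses (points, 3 in each group on the horizontal axis, controls dark and BPA red), with bars for the group mean and standard deviation and a vertical scale of its own in each panel. ENSMMUT00000037347 has non-overlapping LG groups in RV, which lists it, and in BFM. ENSMMUT00000036475 has non-overlapping EG groups in LV, which lists it, in BFM, and in RV with the opposite sign. Both are shown because they were called in BFM, so their BFM values are selected too. ENSMMUT00000037517 is lower with BPA in LV and RV, which list it, but higher in BFM in LG.

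Read over all 96 entries, the listed sign was kept elsewhere in about as many readings as it was lost. In BFM of the same window, 53 of 96 entries (55.2%) had the sign of the listing, with a median of 0.04 once each difference was turned to the listed direction. In the other 3 chambers of the same window, the sign was kept in 147 of 282 readings (52.1%), leaving out 6 readings that are entries of a list themselves. In the same chamber but the other window, it was kept in 42 of 86 (48.8%), leaving out 10 such readings. Entries of 1 list come from the same few arrays, and a transcript with 2 entries is counted for each, so these shares are given as a description.

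Single lists lay to either side. Of the 19 entries of RV LG, 14 of them lowered, 14 had the same sign in BFM and 14 in RA. Among those that the other chamber does not list, 13 of 17 had the same sign in LA and 5 of 18 in LV. The median difference, turned to the listed direction, was 0.38 for BFM, 0.58 for RA, 0.42 for LA and −0.28 for LV. Among all members that the chamber does not list, 52 of 77 were lower with BPA in RA LG and 47 of 66 in LA LG. In LV LG 41 of 60 such members were higher, and in BFM LG 46 of 88 were. The part of this lean in the counts of single lists was not tested. For the 15 entries of LV LG, 5 kept their sign in BFM and 4 in LA. The 17 entries of LV EG kept it in 12 cases in BFM and in 4 cases in RA. All 4 entries of RA EG kept their sign in RA LG and all 7 entries of RA LG kept theirs in RA EG. Over all 88 members, 61 were lower with BPA in RA LG and 47 in RA EG. In LV, of the 13 EG entries that LG does not list, 3 had the same sign in LG. The 2 windows of a chamber share no fetus, but they share an estimate of the residual variance.

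**Figure D4:**
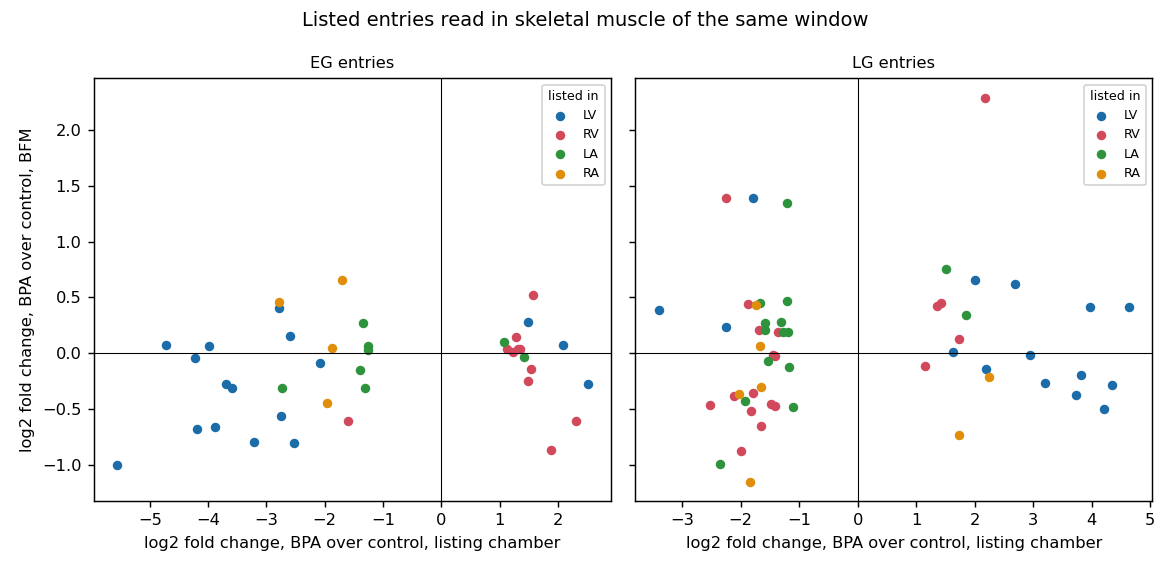
Each point is 1 of 96 entries, with the log2 fold change of BPA over control in the chamber that lists it on the horizontal axis and that in BFM of the same window on the vertical axis (EG left, LG right, colours for the chamber). Entries lie above and below 0 in BFM on both sides of the vertical line, and 53 of 96 have the same sign in both.

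The entries themselves differed between lists in direction. LV EG holds 17 entries, 14 of them lowered, and LV LG 15, of which 12 are raised. RV EG has 11 entries with 10 raised, and RV LG 19 with 14 lowered. LA EG has 8 with 6 lowered, LA LG 15 with 13 lowered, RA EG 4 that are all lowered, and RA LG 7 with 5 lowered. Over entries of every kind, the LV EG list was also mostly lowered and the RV EG list mostly raised. For the other lists the direction over entries of every kind was not counted. Among all transcripts tested, the share called at the same criterion in EG was 0.925% for LV, 0.615% for RV, 0.582% for LA and 0.439% for RA. In LG it was 0.84% for LV, 0.549% for RV, 1.09% for LA and 0.439% for RA. Every entry met the criterion here as well, as the lists were made with it. The median size of the log2 fold change was largest in the LV lists, 3.21 for each window, and between 1.33 and 1.92 in the other lists. The median SE of tested members was 0.95 in LV, against 0.48 in RV, 0.50 in LA and 0.55 in RA. The same limit on p therefore asks for a larger fold change in LV, where some values also stood at the array's lowest. These sizes do not rank the BPA effect between chambers. No entry had an adjusted p under 0.05, the lowest being 0.194 in RV LG. The smallest fold change inside the criterion was 1.08, of the U2 transcript in LA EG, and the largest p was 0.00988, of the U1 transcript ENSMMUT00000035804 in LA LG. Just outside was the U6 transcript ENSMMUT00000036466 in LV LG, with a log2 fold change of 3.32 and an unadjusted limma p of 0.0105.

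The level of the 88 members as a set was also read on single arrays, as the distance of their median from the array median. Among the 8 combinations of chamber and window, BPA and control arrays did not overlap in 5. The 88 include members listed in each chamber for their BPA difference, so the choice itself favours such gaps, and they are given as a description. In LA LG the distance was between −1.46 and −1.39 in BPA fetuses and between −1.07 and −0.74 in controls. It was also lower with BPA in LV EG (−1.85 to −1.27, against −1.08 to −0.81) and RA LG (−1.90 to −1.44, against −1.27 to −1.21). It was higher with BPA in LV LG (−1.35 to −1.06, against −2.12 to −1.38) and RV EG (−1.28 to −1.03, against −1.56 to −1.46). With the members that the chamber lists left out, the arrays overlapped in all 8. In BFM, where none is listed, the distance had means of −1.60 ± 0.20 (SD, n = 3) in EG controls, −1.59 ± 0.15 in EG BPA, −1.55 ± 0.19 in LG controls and −1.65 ± 0.34 in LG BPA.

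U1 contributed 5 members, and 3 of them are listed as raised in LV EG. ENSMMUT00000034332 has entries in both windows of LV, raised in both. Its LV values were −0.68, −0.81 and −0.89 in EG controls and 2.63, 2.64 and −0.10 in EG BPA fetuses. In LG they were −0.93, 1.67 and 0.63 in controls and 4.59, 5.33 and 5.35 in BPA fetuses. The log2 fold changes were 2.51 (SE 0.78) and 4.64 (SE 0.78), and 5 of its 12 LV arrays were at the array's lowest value. Elsewhere it moved by 0.41 or less in size in either window, from −0.27 in BFM EG to 0.41 in BFM LG. When the lowest LV values were raised to a common level, the EG difference was 1.34 and no longer met the criterion.

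The other U1 transcripts of LV EG were ENSMMUT00000034586 and ENSMMUT00000034795. ENSMMUT00000034586 read 4.60, 4.47 and 5.10 in controls and 6.74, 5.48 and 6.40 in BPA fetuses (1.48, SE 0.44). In LV LG it had the opposite sign, with controls at 6.83, 6.48 and 6.46 and BPA fetuses at 5.37, 5.86 and 4.83 (−1.24, SE 0.44, unadjusted p = 0.0167 by limma). BPA fetuses were thus all above their controls in EG and all below them in LG. ENSMMUT00000034795 read 2.85, 3.51 and 2.67 in EG controls and 5.34, 4.50 and 5.46 in BPA fetuses (2.09, SE 0.52), and in RA EG it differed by 0.77 (SE 0.36). Of the 2 U1 transcripts listed in LA, ENSMMUT00000035922 was raised in EG, from 5.69, 5.21 and 5.55 to 6.48, 6.90 and 7.32 (1.41, SE 0.45). ENSMMUT00000035804 was lowered in LG, from 6.13, 5.37 and 6.73 to 5.16, 4.55 and 4.67 (−1.28, SE 0.43). Neither reached a difference of 1 in RV, RA or BFM in its listing window. In LV it was 0.04 (SE 0.96) in EG for ENSMMUT00000035922 and 1.07 (SE 1.09) in LG for ENSMMUT00000035804, the latter opposite in sign to LA and not called.

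The U2 transcript ENSMMUT00000051150 is listed as raised in LA EG, where controls read 4.14, 3.93 and 3.90 and BPA fetuses 4.85, 4.89 and 5.48 (1.08, SE 0.35). In RV, RA and BFM it fell below the filter on variation, and 2 of its LV arrays were at the lowest value. It is the only U2 member.

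U4 has 6 members, listed as raised in 3 entries and as lowered in 3. ENSMMUT00000037632 was raised in LV LG, from 4.59, 4.35 and 4.78 in controls to 6.62, 8.14 and 7.78 (2.94, SE 0.85). In LV EG its difference was −2.08 (unadjusted p = 0.0311 by limma), with controls at 7.43, 6.19 and 8.84 and BPA fetuses at 7.28, 4.85 and 4.09. The LG groups did not overlap, and the EG groups did. ENSMMUT00000035667 was also raised in LV LG, from 2.39, 3.35 and 3.41 to 5.25, 5.87 and 4.04 (2.01, SE 0.64). ENSMMUT00000050736 was lowered there, from 5.02, 5.71 and 5.98 to 3.76, 1.61 and 4.58 (−2.26, SE 0.68), while in RV LG and LA LG it differed by 1.11 and 1.03 in the other direction, neither called.

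The remaining U4 entries came from 3 chambers. ENSMMUT00000034667 was lowered in LV EG, from 2.05, 4.84 and 4.49 to 2.62, −0.23 and 1.21 (−2.60, SE 0.79), and a control value of 2.05 lies within the exposed group. ENSMMUT00000034008 was raised in RV LG, from 4.18, 4.09 and 4.13 to 5.58, 5.53 and 5.58 (1.43, SE 0.38). The 3 exposed fetuses were nearly equal, as were the 3 controls. ENSMMUT00000050498 was lowered in LA LG, from 5.91, 5.35 and 6.45 to 4.81, 4.67 and 4.90 (−1.11, SE 0.37). In BFM the U4 transcripts differed by 0.69 or less in size in either window.

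Both U5 transcripts are listed as lowered in EG, in different chambers. ENSMMUT00000033879 read 7.2, 9.03 and 8.69 in LV EG controls and 5.62, 5.77 and 3.91 in BPA fetuses (−3.21, SE 0.76). In BFM EG it differed by −0.79, with an unadjusted p of 0.271 by limma across all transcripts. ENSMMUT00000050182 read 5.12, 5.51 and 5.64 in LA EG controls and 3.86, 4.2 and 4.00 in BPA fetuses (−1.40, SE 0.40), and 4 of its LV arrays were at the lowest value. The U6atac transcript ENSMMUT00000049678 was lowered in LV EG, from 4.36, 7.41 and 4.95 to 0.25, 4.00 and −0.10 (−4.19, SE 1.08), where −0.10 is the lowest value of its array. Its other EG differences were −0.68 in BFM, −0.36 in LA, 0.10 in RV and 0.65 in RA. Of the 15 members that are not U6, 6 were tested in BFM and none was called there for BPA in either window. None had an unadjusted p under 0.05 by limma. Among all transcripts tested in BFM, 0.267% were called in EG and 0.825% in LG, and 2.5% and 5.32% had such a p. So few members cannot be told from these shares.

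The U6 members with 2 entries fell into pairs of lists that shared a chamber or a window. Lowered in LV EG and raised in LV LG were 3 of them. ENSMMUT00000037441 read 5.49, 9.33 and 6.39 in EG controls, 2.74, 3.98 and 2.85 in EG BPA fetuses, −0.93, −0.90 and 3.37 in LG controls and 5.41, 3.30 and 5.47 in LG BPA fetuses. ENSMMUT00000034178 read 7.38, 9.14 and 7.15, then 4.87, 4.71 and 5.71, then 3.59, 3.07 and 5.26, and then 7.10, 7.20 and 5.68 in the same order of groups. In ENSMMUT00000034178, EG controls were all above EG BPA fetuses and LG BPA fetuses all above LG controls. In ENSMMUT00000037441 the EG groups did not overlap either, but the LG groups did, with a control at 3.37 and a BPA fetus at 3.30. Its LG control values of −0.93 and −0.90 are the lowest of their arrays. ENSMMUT00000037794 lay at the bottom of the range, between −1.10 and 1.83, with 5 of its 12 LV arrays at the lowest value. With those values raised to a common level, its differences were −0.72 in EG and 0.97 in LG, and neither met the criterion. ENSMMUT00000034178 was tested in the other 4 tissues and ENSMMUT00000037441 in RV, LA and RA, without a call for BPA, and ENSMMUT00000037794 was below the filter on variation in all 4.

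ENSMMUT00000033983 was lowered in LA in both windows, from 6.77, 6.27 and 5.98 to 5.47, 4.97 and 4.82 in EG and from 6.44, 6.90 and 6.05 to 4.01, 5.25 and 5.51 in LG. The log2 fold changes were −1.25 (SE 0.42) and −1.54 (SE 0.42). In RA it differed by −0.52 in EG and 0.06 in LG. ENSMMUT00000035165 and ENSMMUT00000048513 were each lowered in RV LG and in LA LG. ENSMMUT00000035165 fell by 1.68 in RV (SE 0.47), from 7.90, 7.03 and 6.23 to 5.41, 5.46 and 5.24, and by 1.58 in LA (SE 0.44), from 7.80, 8.14 and 6.92 to 6.05, 6.63 and 5.44. In LV, RA and BFM its LG differences were 0.15, −0.59 and 0.20. ENSMMUT00000048513 fell by 1.36 in RV (SE 0.45), from 6.04, 4.47 and 4.77 to 3.50, 4.13 and 3.58, and by 1.19 in LA (SE 0.31), from 4.69, 4.94 and 5.41 to 3.95, 3.97 and 3.55. The 8 members with 2 entries thus came from 4 pairs of lists, and all but the 3 U6 transcripts of LV had the same direction in both.

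Whether a listed value met the criterion depended on single fetuses. Of the 30 listed values of the members named for their type or for 2 entries, 5 met the criterion with each of the 12 fetuses of the tissue left out in turn, and 25 lost it in at least 1 omission. The 5 were ENSMMUT00000033879, ENSMMUT00000034795 and ENSMMUT00000037794 in LV EG, ENSMMUT00000034332 in LV LG and ENSMMUT00000034008 in RV LG. ENSMMUT00000034332 in LV EG lost it in 9 of 12, with differences from 2.06 to 3.43. Among these were omissions of LG fetuses 9, 10, 11 and 12, which change the residual variance but not the EG difference. ENSMMUT00000034667 and ENSMMUT00000037441 in LV EG, ENSMMUT00000035667 in LV LG, ENSMMUT00000048513 in RV LG and ENSMMUT00000035804 in LA LG lost it in 8 of 12. ENSMMUT00000050498 in LA LG passed the filter on variation in 5 of the omissions and met the criterion in none of them. Its difference in those 5 moved little, from −1.16 to −1.11.

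Gestation was compared in 2 ways. The difference between LG and EG averaged over controls and BPA fetuses is independent of the BPA contrast by which members were chosen, apart from the shared residual variance, so all 88 count in it. The difference between LG and EG controls shares its control arrays with the listing comparisons, so there a member counts only in tissues that do not list it. Calls were made at an adjusted p of 0.05 over all transcripts tested.

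In BFM, late gestation differed from early gestation for most of the transcripts tested but for few of the spliceosomal RNAs tested. Over both treatments, 64% of all 8609 tested transcripts were called, against 5 of 58 members (8.62%), 3 higher and 2 lower in LG. Counted over everything on the array, tested or not, these are 21.1% of all transcripts and 5.68% of the 88. The median size of the difference was 0.32 for tested members and 0.68 for all tested transcripts, with median SEs of 0.34 and 0.21, but 0.27 over all 88 members and 0.25 over all 26149 transcripts. Of the tested members, 53 lay below the tissue's median level, where 42.4% of tested transcripts were called, and 5 lay above it, where 80.1% were. All 5 called members were below it. The part of level and spread in the gap was not tested. At the criterion used for BPA, 0 members were called by limma, against 25.4% of all transcripts tested. 8 members had an unadjusted p under 0.05, against 66.6% of all transcripts tested.

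The 5 members called in BFM differed by about 2-fold or less. ENSMMUT00000035066 rose from 5.88, 5.02 and 6.37 in EG controls and 5.06, 5.03 and 5.35 in EG BPA fetuses to 6.31, 6.16 and 6.18 in LG controls and 7.78, 5.56 and 6.56 in LG BPA fetuses (0.98, SE 0.34, adjusted p = 0.0241 by limma), a call lost without fetus 2. ENSMMUT00000033771 rose by 0.95 (SE 0.19), from values of 4.93 to 6.00 in EG to 5.51 to 6.81 in LG. ENSMMUT00000035165, described above for its entries in RV LG and LA LG, rose by 0.62 (SE 0.18). ENSMMUT00000034441 fell from values between 6.35 and 7.71 in EG to values between 4.93 and 6.61 in LG (−1.01, SE 0.34, adjusted p = 0.0206 by limma), a call lost without fetus 2 or fetus 6. The steadiest was ENSMMUT00000037079, which lay between 5.47 and 5.85 in all 6 EG fetuses and between 4.88 and 5.20 in all 6 LG fetuses (−0.67, SE 0.13). In controls alone, 2 of 58 members were called, ENSMMUT00000033771 higher and ENSMMUT00000037079 lower in LG, against 52.3% of all transcripts tested.

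In RV, 6 of 75 members tested were called over both treatments, 4 higher and 2 lower in LG, against 12.5% of all transcripts tested. Over the whole array the order was the other way, with 6.82% of the 88 and 5.76% of all transcripts called. All 6 are U6. The largest rise was that of ENSMMUT00000037889, from values between 6.41 and 7.67 in EG to values between 7.58 and 9.29 in LG (1.30, SE 0.32, adjusted p = 0.0205 by limma). ENSMMUT00000035056, ENSMMUT00000050676 and ENSMMUT00000037759 rose by 1.18, 1.03 and 1.03. The largest fall was that of ENSMMUT00000048869, from 6.85, 5.15, 5.57, 5.20, 6.05 and 5.17 in EG to 4.11, 3.95, 4.89, 4.72, 3.75 and 4.70 in LG, without overlap (−1.31, SE 0.34, adjusted p = 0.0267). ENSMMUT00000050338 fell by 0.96. Of the 6, ENSMMUT00000050676 and ENSMMUT00000037759 are listed as raised in RV EG, and the other 4 in other chambers. The count depended on single fetuses. It was 0 without fetus 4 or fetus 6, 1 without fetus 5 or fetus 8, and 2 without fetus 1, 2, 3 or 7.

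The direction of the gestation difference was also counted over all members, called or not. In RV, of the 88, 69 (78.4%) were higher in LG over both treatments, with a median of 0.24. Among all transcripts of RV 56.6% were higher, with a median of 0.08, and among transcripts below the median level 66.7%, with a median of 0.14. The members' median lay −1.50 ± 0.05 (SD, n = 3) from the array median in EG controls, −1.17 ± 0.13 in EG BPA, −1.12 ± 0.31 in LG controls and −1.09 ± 0.04 in LG BPA. EG controls were thus below the other groups, but 30 of the 88 members are listed in RV. Without those 30, the distances were −1.70 ± 0.14, −1.50 ± 0.13, −1.43 ± 0.39 and −1.28 ± 0.13 in the same order, and EG controls (−1.79 to −1.53) overlapped EG BPA fetuses and LG controls but lay below LG BPA fetuses (−1.42 to −1.17). In RA, 59.1% of the members were higher in LG, against 49.6% of transcripts below the median level, and in LA 40.9% against 50.6%. In LV and BFM, 47.7% of the members were higher in each, against 50.9% and 52%.

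In LA, 1 of 74 members was called, against 9.31% of all transcripts tested, and over the whole array 1.14% of the 88 against 2.81% of all transcripts. ENSMMUT00000034615 read 6.83, 7.43 and 9.04 in EG controls, 8.08, 6.87 and 8.81 in EG BPA fetuses, 6.99, 7.11 and 6.92 in LG controls and 5.42, 5.50 and 5.36 in LG BPA fetuses (−1.63, SE 0.38, adjusted p = 0.0138 by limma). It is listed as lowered by BPA in LA LG, and the difference in controls alone was −0.76 (SE 0.53). In LV, 0 of 86 members were called by limma, against 1.36% of all transcripts tested, and 10 members had an unadjusted p under 0.05, against 16.9%. In RA, 0 of 82 were called by limma, against 8.06% of those tested, and 6 had an unadjusted p under 0.05, against 21.1%. The 15 members that are not U6 gave no call in the 57 tests by limma that passed the filter over the 5 tissues, of which 8 had an unadjusted p under 0.05, where the share of all transcripts tested ran from 16.9% in LV to 66.6% in BFM.

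In controls alone, the members that a chamber does not list showed little. ENSMMUT00000035056 was higher in LG in RV, the only call among 45 members tested, against 1.98% of all transcripts tested. It read 4.11, 5.30 and 4.56 in EG controls and 7.58, 6.28 and 6.44 in LG controls (2.11, SE 0.50, adjusted p = 0.0467 by limma). The call was lost without any 1 of fetuses 1 to 8. Fetuses 4 to 6 were exposed to BPA and do not enter the difference, so leaving them out did not change it. By limma, 0 of 58 were called in LV, 0 of 52 in LA and 0 of 71 in RA, with 8, 1 and 11 members at an unadjusted p under 0.05. Among all transcripts tested, that p was reached by 10.6% in LV, 15.9% in LA and 13.5% in RA. Among all transcripts tested, 0% were called in LV, 2.49% in LA and 2% in RA.

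**Figure D5:**
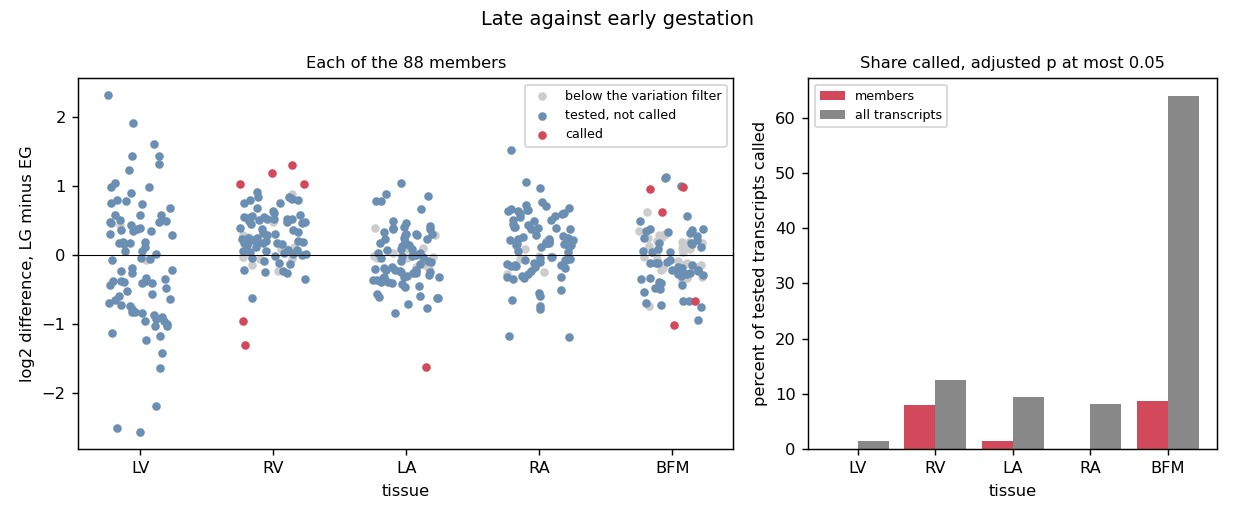
Left, the log2 difference of LG minus EG, averaged over both treatments, for each of the 88 members (points) in each tissue, with called members in red and members below the variation filter in grey. Right, the percent of tested transcripts called at an adjusted p of 0.05 among members and among all transcripts, which in BFM was 8.62 against 64.

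The BPA effect was also compared between windows, as the effect in LG minus that in EG. Among members that a tissue does not list, the criterion used for BPA was met by limma for 2 of 71 tested in RA, 1 of 58 in LV, 1 of 45 in RV, 0 of 58 in BFM and 0 of 52 in LA. In LA and BFM, 2 and 1 members had an unadjusted p under 0.05, against 6.19% and 2.81% of all transcripts tested. The share of all transcripts tested at that criterion was 0.332% for RA, 1.17% for LV, 0.515% for RV, 0.499% for BFM and 1.23% for LA. None of the members passed an adjusted p of 0.05.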

How the data were processed

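The authors hybridized Cy5-labelled cDNA to NimbleGen arrays designed from the Ensembl Mmul_1 transcripts and deposited log2 expression values, made by robust multi-array averaging (background correction, quantile normalization, median polish) within each tissue. Scanner intensities were not used here, so distance to background is unknown. Precision is limited by the number of arrays. The preparation of BFM is not given in the sources used here.

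Members were taken by identifier and description from the study's lists, with 13 misspelled identifiers restored to 11 digits. All 88 were on the array. The members, lists and tests were chosen with earlier results of these data known. Samples were grouped by their titles. For each tissue, 4 group means per transcript were fitted (lmFit, contrasts.fit and eBayes of limma 3.58.1, R 4.3.3) where the interquartile range reached 0.5, and p-values were adjusted over all transcripts tested. Log2 fold changes are differences of group means. Named members were those with 2 entries, all that are not U6, the largest rise and fall in each tissue among members called over both treatments, the largest BPA rise and fall in BFM, and all members called in BFM. ENSMMUT00000033771, ENSMMUT00000037079, ENSMMUT00000035056, the other gestation calls, the brightest and dimmest members, the one of widest range and those of the closing section were named after their values were seen. Copy agreement is the mean pairwise correlation of residuals from group means. A value within 0.001 of its array's minimum was counted as lowest. The fit was tested on simulated data. Alternatives were other variation filters, removal of dim transcripts, trend and robust settings, further quantile normalization, other thresholds, only the arrays compared, and each fetus left out. Raising the lowest LV values was added after seeing the data. Figures used Python 3.11.15, pandas 2.3.3, numpy 2.4.6 and matplotlib 3.10.9. Other cell type markers and the spliceosome's proteins were not analysed here, because the sources used pair only a few transcripts, MYH6 among them, with symbols. Sequences were not used here.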

Additional observations from a re-analysis of the deposited data

Results flagged for a closer look

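For 4 members in a tissue that does not list them, the BPA effect in LG minus that in EG met an unadjusted p of at most 0.01 and a log2 difference of at least 1 in size by limma. They were 1 of 58 tested in LV, 1 of 45 in RV and 2 of 71 in RA, where 1.17%, 0.515% and 0.332% of all transcripts tested met it, and 0 in LA and BFM, where 1.23% and 0.499% did. They were singled out after their values were seen. ENSMMUT00000038087 (U6) in LV had an effect of 2.19 in EG and −2.55 in LG, a difference of −4.74 (SE 1.24, adjusted p = 0.772). ENSMMUT00000035424 (U6) in RV had −0.94 in EG and 1.05 in LG, a difference of 1.99 (SE 0.64, adjusted p = 1.00). In RA, ENSMMUT00000033672 (U6) differed by −2.97 (SE 0.95), from 1.58 in EG to −1.39 in LG, and ENSMMUT00000037632 (U4) by −1.63 (SE 0.52), from 0.90 to −0.73, both with an adjusted p of 0.998. Each turns from one sign to the other between windows, and none passes adjustment. Groups of 3 were not tested for single outlying fetuses.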

How the results depend on the processing

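No paired analysis was possible because the groups compared within a tissue are different fetuses, and a fetus number is shared only between tissues. Counts of called members changed with many settings, in steps of a few members, and the cause was not tested.

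For BPA in BFM, the EG count of 1 became 0 with an adjusted p of 0.05, further quantile normalization, an interquartile range of at least 1, dim transcripts removed, or trend and robust settings, and the LG count of 1 became 0 with an adjusted p of 0.05 and 2 with further quantile normalization, no filter on variation, or only the 6 arrays compared. With each fetus left out, the EG count ranged from 0 to 1 (0 without fetus 1, 4, 5 or 6) and the LG count from 1 to 4 (4 without fetus 11, 2 without fetus 1, 3, 7 or 10).

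For gestation in controls, the RV count of 1 became 0 with further quantile normalization, no filter or only the 6 arrays compared, 2 with an interquartile range of at least 1 or dim transcripts removed, and 3 at the BPA criterion. That criterion gave 1 in LV, 1 in LA and 2 in RA, each 0 before. The BFM count of 2 became 1 with an interquartile range of at least 1 or no filter, 0 at the BPA criterion or with dim transcripts removed, and 4 with only the 6 arrays compared. Omitting single fetuses gave 0 to 2 in RV, 0 to 2 in RA (2 without fetus 2), 2 to 4 in BFM (4 without fetus 11) and 0 in LV and LA throughout.

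For gestation over both treatments, the LV count of 0 became 2 at the BPA criterion and 1 with the lowest values raised, dim transcripts removed, or trend and robust settings. The RV count of 6 became 2 with no filter, the RA count of 0 became 1 at the BPA criterion, and the BFM count of 5 became 0 at the BPA criterion, 3 with dim transcripts removed and 2 where an interquartile range of 1 was asked for. Omissions gave 0 to 2 in LV (2 without fetus 9, 1 without 7 or 8), 0 to 7 in RV, 1 to 2 in LA (2 without fetus 1 or 8), 0 to 2 in RA (2 without fetus 2, 1 without 9 or 11) and 4 to 10 in BFM (10 without fetus 7 or 11, 8 without fetus 1). The 40 values of members named by the rule were recomputed, and none reversed its direction under an alternative run. Of the alternative values, 528 kept their side of the threshold, 204 lost a call and 2 gained one. The median signed BPA difference in BFM over the 96 entries was 0.04, and 0.03 after further quantile normalization, and the mean correlation of U6 pairs over the 5 tissues was 0.041 and 0.036. In LV, where members stood at their array's lowest value, small levels are bounds only.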
